A study of Mus musculus with 44 samples.

Results

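Aminoacyl-tRNA synthetases and the scaffold proteins of the multi-synthetase complex were examined in ribosome-associated RNA of central amygdala (CeA) Crh neurons. Members were taken by symbol, as an amino acid letter followed by ars or ars2, together with Eprs, Farsa, Farsb, Fars2, Aimp1, Aimp2 and Eef1e1. The deposited matrix held 34 of them among 8203 genes, namely 20 cytosolic synthetases (Gars and Kars also serve mitochondria), 11 mitochondrial synthetases and 3 scaffold proteins.

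The study used translating ribosome affinity purification and RNA sequencing (TRAP-seq) to ask how fear conditioning (FC) and extinction (EXT) change the translated RNA of these neurons. All 44 mice were first-generation Crh-TRAP animals aged 10 to 16 weeks, heterozygous for a Crh-Cre transgene and for a Cre-dependent eGFP-L10a reporter that tags ribosomes in Cre-expressing cells. The 16 TA mice (10 male, 6 female) heard 5 tones alone, the 12 FC mice (6 male, 6 female) had 5 tones paired with shock, and the 16 EXT mice (10 male, 6 female) had the same pairing and, on the following day, 30 unpaired tones. Each mouse was killed 2 h after its last session and gave 1 library from bilateral 1 mm punches. The ribosome tag follows the Cre transgene rather than native Crh, and every group heard tones, so no home cage level is included.

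Aminoacyl-tRNA synthetases join each amino acid to its tRNA, the step that supplies the ribosome. In the cytosol, part of them is held with the scaffold proteins Aimp1, Aimp2 and Eef1e1 in the multi-synthetase complex, and the rest act outside it, while a separate set encoded in the nucleus serves mitochondrial translation. When amino acids run short or the endoplasmic reticulum is stressed, the kinases of eIF2 raise translation of the transcription factor ATF4, which acts on many cytosolic synthetase genes through C/EBP-ATF response elements. Disease variants of many synthetases affect nerves or brain white matter.

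The core letters of that element, TGATGNAA (N is any base), were searched on both strands from 250 bases before to 50 bases after the start of each gene in RefSeq promoters of GRCm38.p6. A promoter was matched for 26 of the 34 members, and 5 of the 26 held the letters (19.2%, exact 95% binomial confidence interval 6.55% to 39.4%), against 1219 of 27025 genes (4.51%). No promoter was matched for Cars, Hars, Hars2, Lars, Nars, Rars, Vars and Wars, so these were not searched. Cars, Hars, Nars, Vars and Wars among them were also lower in EXT vs TA at an unadjusted p under 0.05. The 5 shown are all the matched members that held the letters. Each was lower in EXT vs TA at an unadjusted p under 0.05, at log2 fold changes of -0.60 to -0.26. The other 21 matched members, of which 4 were lower in EXT at an unadjusted p under 0.05, did not hold the letters in this window. Members were chosen with earlier results of these data known, and a link between the letters and the lower values was not tested. Each sequence runs from 130 bases before to 30 bases after the start on its gene's strand, and capitals mark TGATGNAA or its reverse complement.
Iars (chr13:49682000-49682159, + strand): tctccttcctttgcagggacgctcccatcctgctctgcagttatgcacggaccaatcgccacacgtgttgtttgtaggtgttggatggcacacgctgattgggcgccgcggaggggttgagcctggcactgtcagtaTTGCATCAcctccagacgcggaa
Aars (chr8:111033712-111033871, + strand): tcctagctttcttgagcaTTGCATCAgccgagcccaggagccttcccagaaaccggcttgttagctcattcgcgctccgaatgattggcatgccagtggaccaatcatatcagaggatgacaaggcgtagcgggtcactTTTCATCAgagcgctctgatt
Gars (chr6:55037871-55038030, + strand): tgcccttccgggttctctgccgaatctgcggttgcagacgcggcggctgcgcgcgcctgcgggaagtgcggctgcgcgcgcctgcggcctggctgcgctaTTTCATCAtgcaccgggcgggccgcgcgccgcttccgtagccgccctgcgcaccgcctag
Tars (chr15:11399629-11399788, - strand): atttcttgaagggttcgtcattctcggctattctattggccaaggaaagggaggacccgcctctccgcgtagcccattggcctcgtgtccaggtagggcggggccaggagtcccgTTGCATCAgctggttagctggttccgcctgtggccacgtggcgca
Yars (chr4:129189773-129189932, + strand): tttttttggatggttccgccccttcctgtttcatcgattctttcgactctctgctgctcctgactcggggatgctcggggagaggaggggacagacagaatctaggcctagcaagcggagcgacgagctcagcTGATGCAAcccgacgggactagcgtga

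The letters began at position 8 of Iars, 4 of Yars, -15 of Tars and -30 of Gars, counting the first transcribed base as 1 and the base before it as -1. Aars held them at 2 places, -112 and 10. The stricter letters TGATGCAA were found in 4 of the 26 members (15.4%) and in 1.03% of genes. A match of letters does not show that a factor bound there.

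Effective library sizes, solved back from the deposited values, were 14649837 to 20440351 in TA, 13431032 to 19257786 in FC and 12802113 to 17805609 in EXT, with the lowest median in EXT (medians 18015590, 16977973 and 15412341). They include a scaling and are not plain depth, since EXT replicate 5 had 14141584, below its 14646161 recovered reads. Batches 1, 2 and 5 held all 3 groups, with 4, 5 and 7 TA mice, 5, 2 and 5 FC mice and 2, 3 and 5 EXT mice, whereas batches 3 and 4 held only EXT mice (5 and 1). With batch entered as categories, those 6 EXT mice have no TA or FC mouse in their batch and enter the fold changes only through the sex term, so EXT rests mainly on the other 10 mice. They also stood apart. The summed level of 8 mitochondrial transcripts was 6533 to 42617 cpm (reads scaled to library size) in them and 311 to 31319 cpm in the other 10 EXT mice, of which EXT replicate 1 held the highest, and log2 cpm of Crh was 3.15 to 4.56 against 3.49 to 6.31. Of 9 markers of CeA GABAergic neurons 8 were measured, with a summed level of 1745 to 3359 cpm in TA, 2018 to 2733 in FC and 1042 to 2929 in EXT. None of 8 microglial markers and 1 of 6 endothelial markers was measured, while 6 of 7 oligodendrocyte markers (1351 to 6183 cpm in TA, 1643 to 17875 in FC, 1805 to 13167 in EXT), all 8 astrocyte markers (218 to 1285, 283 to 1017 and 310 to 1327 cpm), 3 of 7 glutamatergic markers (170 to 368, 87.2 to 411 and 101 to 488 cpm) and 4 of 8 choroid plexus markers (187 to 27465, 673 to 19373 and 186 to 51048 cpm) were, so RNA of other cells was present. In such bulk RNA, fewer cells of a type and less RNA per cell cannot be told apart.

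Every member was well covered, with at least 90 reads in each mouse and 773 reads for the median member in its median mouse. Per kilobase of the longest coding transcript, the median TA level of the cytosolic synthetases ran from 6.52 cpm for Vars to 104 cpm for Nars, with a median of 29.8. The mitochondrial synthetases ran from 4.20 cpm per kilobase for Iars2 to 230 for Lars2, with a median of 9.92, and the scaffold proteins from 20.8 for Aimp2 to 47.6 for Eef1e1. Levels between mice were steady for most members. The SD of log2 cpm over the 44 mice had a median of 0.36 over the members against 0.39 over all genes, and ranged from 0.20 for Farsb to 0.58 for Wars, apart from Lars2 at 1.45. Batch, taken alone, accounted for a median of 37.1% of a member's variance and 41.5% of a gene's over all genes. Group, taken alone, accounted for 13.4% against 7.93%. Neither share was adjusted for the other. They overlap, since some batches held only EXT mice and any shift of those batches enters the group share too.

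In EXT vs TA, 14 of the 34 members were lower after extinction and 0 higher at an unadjusted p under 0.05 (limma, 32 mice), and 1 passed correction over all genes. The log2 fold change was below 0 in 28 members, with a median of -0.18 against 0.01 over all genes. By that rule 11% of the whole matrix was lower and 10.2% higher. Only Iars passed an FDR-adjusted p under 0.05, as 1 of 2 genes in the whole matrix (0.0244%). The lower members were mostly cytosolic enzymes that work outside the complex, where 10 of 12 were lower (median -0.26, all 12 below 0). Of the 11 complex members only Iars and Mars were lower, of the 11 mitochondrial synthetases only Ears2 and Aars2, and the 3 scaffold proteins were at 0.04 to 0.11, above 0 and with unadjusted p of 0.14 or more. These counts depend on the threshold. Mitochondrial Nars2 (-0.33, p = 0.051) and Hars2 (-0.27, p = 0.10) and Lars of the complex (-0.24, p = 0.069) fell further than Hars (-0.19), which passed. Besides the scaffold proteins, Kars (0.06), Fars2 (0.17) and Lars2 (0.45) were above 0. Classes were not compared by a test. Of the cell type markers, 2 of 8 CeA GABAergic markers were lower at that level (median of the 8, -0.22) and no marker of the other lists passed it, and their part in the lower values was not tested.

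**Figure D1:**
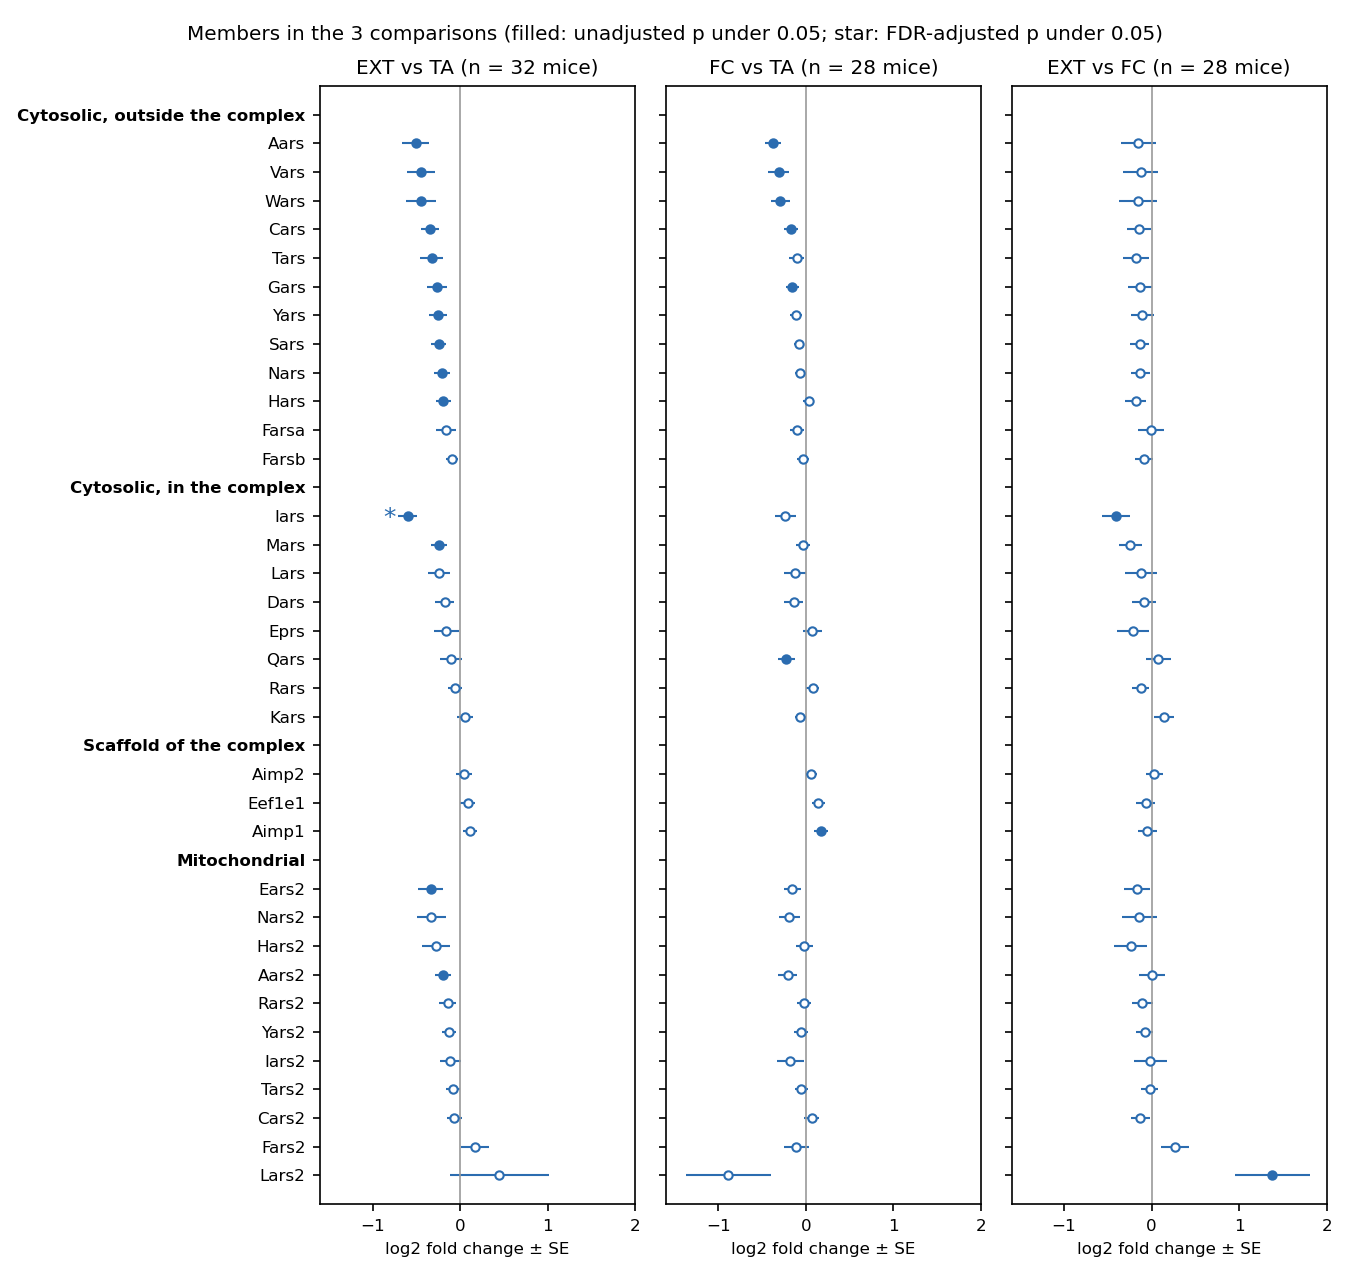
Log2 fold change with its standard error (horizontal axis) for each of the 34 members in the 3 comparisons, by class, from limma with batch as categories and sex. Filled points have an unadjusted p under 0.05 and the star marks the FDR-adjusted call of Iars (-0.60). In EXT vs TA all 12 cytosolic synthetases outside the complex lie left of 0.

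Iars, the isoleucyl-tRNA synthetase (chromosome 13, 49682100-49734267, plus strand, GRCm38), was at 4.64, 5.23 and 5.45 log2 cpm in TA (lowest, median and highest of 16 mice), at 4.13, 4.92 and 5.67 in FC and at 3.87, 4.81 and 6.03 in EXT. The 3 groups overlapped, and EXT spread most widely. Within the batches that held all groups the EXT mice were at 3.87 to 5.06, and 9 of those 10 lay below every TA mouse of their own batch. The mean difference was -1.08 in batch 1, -0.52 in batch 2 and -0.43 in batch 5. The fitted log2 fold change was -0.60 (SE 0.11, p = 5.9e-06, FDR-adjusted p = 0.033, limma). By contrast, the 6 EXT mice of batches 3 and 4 were at 5.24 to 6.03, above all 10 others, and these are the mice with the mitochondrial RNA and Crh levels given above, whose part in the result was not tested. When batch was entered as a number, which lets those 6 mice count, Iars was at -0.19 with FDR-adjusted p = 0.39. The p for Iars stayed between 1.2e-06 and 2.1e-05 when any 1 of the 32 mice was left out, but the FDR-adjusted p ran from 0.0096 to 0.13 and passed the threshold in 15 of these 32 fits. Of the 50-base stretches of its transcripts, 7.15% also occur in the gene Gm4849.

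Aars, the alanyl-tRNA synthetase, was at 6.21, 6.63 and 7.22 log2 cpm in TA, 5.33, 6.44 and 6.89 in FC and 5.37, 5.99 and 7.47 in EXT. The highest EXT value belonged to EXT replicate 3 of batch 3, and the next EXT value was 6.69. Aars differed in EXT vs TA by -0.51 (SE 0.15, p = 0.0027, FDR-adjusted p = 0.14), and 8 of the 10 EXT mice in shared batches lay below every TA mouse of their batch. It overlaps Exosc6, with which most of its 13.8% of shared 50-base stretches are held in common, so its level is uncertain.

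Wars, the tryptophanyl-tRNA synthetase, was at 6.60, 7.10 and 7.75 in TA, 5.67, 6.92 and 7.65 in FC and 5.36, 6.46 and 7.62 in EXT. Vars, the valyl-tRNA synthetase, was at 4.45, 4.75 and 5.93 in TA, 4.08, 4.58 and 5.41 in FC and 3.23, 4.32 and 5.34 in EXT. In both the groups overlapped and the EXT median was the lowest of the 3. The fold changes in EXT vs TA were close, -0.45 for Wars (SE 0.17, p = 0.013, FDR-adjusted p = 0.16) and -0.45 for Vars (SE 0.16, p = 0.0095, FDR-adjusted p = 0.15).

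Cars, the cysteinyl-tRNA synthetase, was at 5.12, 5.38 and 5.91 in TA, 4.56, 5.44 and 5.90 in FC and 4.58, 5.10 and 5.69 in EXT. Sars, the seryl-tRNA synthetase, was at 7.37, 7.53 and 7.83 in TA, 7.13, 7.48 and 7.67 in FC and 6.70, 7.24 and 7.81 in EXT. TA and FC medians lay within 0.1 of each other in both genes, and EXT lay lower with overlap. Cars differed by -0.35 (SE 0.10, p = 0.0019, FDR-adjusted p = 0.14) and Sars by -0.25 (SE 0.09, p = 0.0090, FDR-adjusted p = 0.15). The other 8 members at an unadjusted p under 0.05 ranged from -0.34 for Ears2 to -0.19 for Hars.

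**Figure D2:**
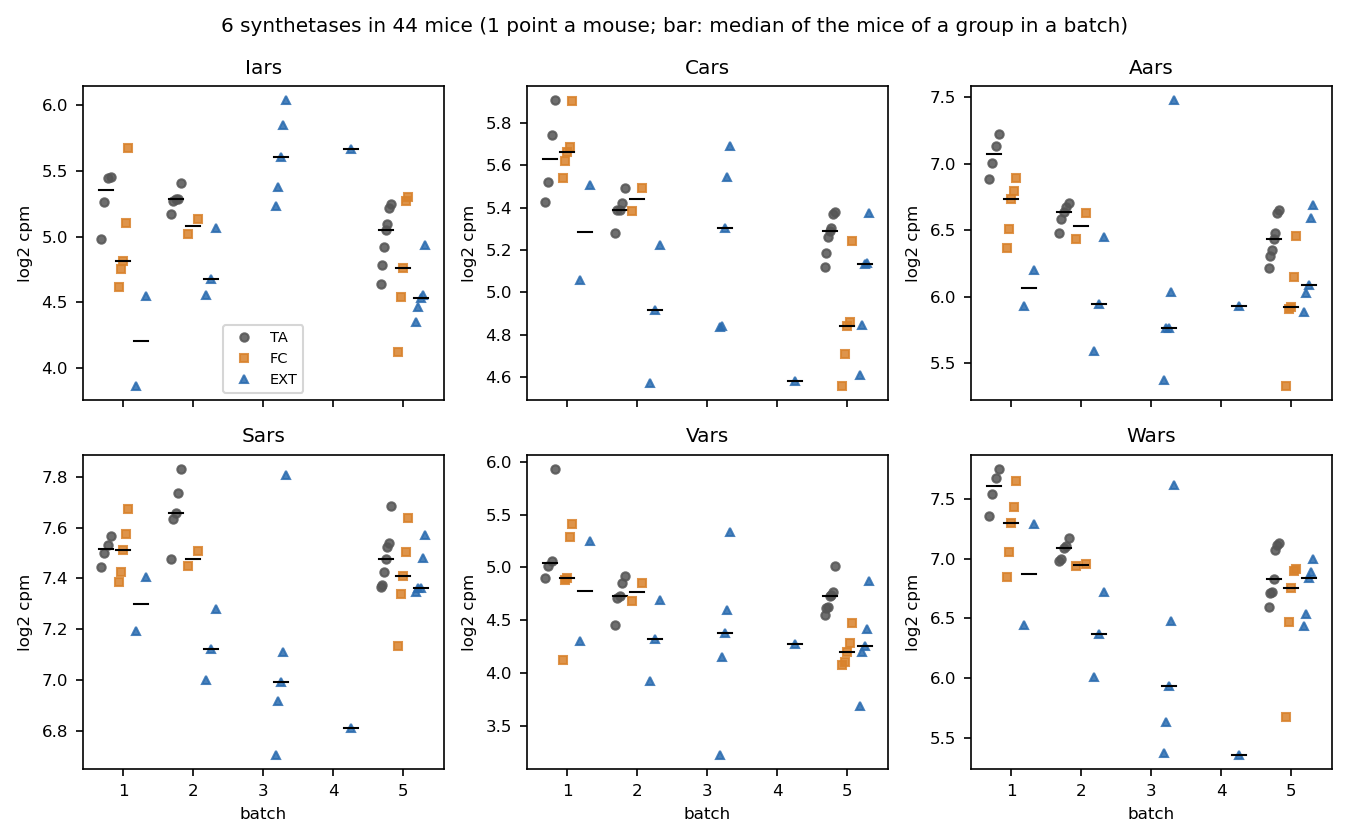
Log2 cpm (vertical axes) of Iars, Cars, Aars, Sars, Vars and Wars in each of the 44 mice by batch (horizontal axes) and group, with a bar at the median of each group in a batch. Within batches 1, 2 and 5 the EXT median lies below the TA median in each panel, except for Wars in batch 5, and Iars of the EXT mice in batches 3 and 4 lies at 5.24 to 6.03.

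Agreement between batches was counted without a test. In EXT vs TA 19 of 34 members had a lower EXT mean in each of the 3 shared batches and 1 had a higher mean in each, while 19.3% of all genes were lower and 19.2% higher in all 3.

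How batch entered the fit changed which members were called, but not the direction of most. With batch as a number, 14 members passed an FDR-adjusted p under 0.05, 13 of them lower and 1, Aimp1, higher, beside 21.4% of all genes. This fit gave, at an unadjusted p under 0.05, 16 lower and 1 higher, beside 18.7% and 19.1% of all genes. The largest change was that of Wars at -0.67 (FDR-adjusted p = 0.013), and Aars was at -0.54 (FDR-adjusted p = 0.013). Iars was not among the 14, and Mars was at 0.06 in place of -0.24. Mars, the methionyl-tRNA synthetase, was at 5.14, 5.43 and 5.98 log2 cpm in TA, 4.65, 5.54 and 6.0 in FC and 5.00, 5.33 and 6.43 in EXT, with overlap between the groups. It was at 5.57 to 6.43 log2 cpm in the EXT mice of batches 3 and 4 and at 5.00 to 5.44 in the other EXT mice, without overlap, as for Iars and for no other member. Leaving out batches 3 and 4, 6 members passed the adjusted threshold, and the fold changes stayed close to those above (Iars -0.60, Aars -0.50, FDR-adjusted p = 0.016 and 0.034).

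Effective library size moved with group, since its median was lower in EXT than in TA in each shared batch too. With log2 library size added to the fit, 3 members had an unadjusted p under 0.05 and none passed the adjusted threshold, Iars being at -0.56 (SE 0.14, p = 0.00037, FDR-adjusted p = 0.88) and Aars at -0.33 (p = 0.091). The part of depth, or of the scaling held in this size, in the lower values was not tested beyond this.

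FC vs TA uses the same TA mice, so its values are given beside those of EXT vs TA and the likeness of the pair was not tested. No member passed an FDR-adjusted p under 0.05, nor did any gene of the matrix (0%). At an unadjusted p under 0.05, 6 members were lower and 1 higher, against 8.2% and 8.61% of all genes, and 27 of 34 were below 0 with a median of -0.10. The 6 lower members were all cytosolic, namely Aars at -0.37 (SE 0.09, p = 0.00022, FDR-adjusted p = 0.090), Wars at -0.29 (SE 0.11, p = 0.011, FDR-adjusted p = 0.18), Vars at -0.31 (SE 0.12, p = 0.014, FDR-adjusted p = 0.19), Qars at -0.22, Gars at -0.15 and Cars at -0.17. Cars was lower in batch 5 only, with mean differences of 0.03 in batch 1, 0.04 in batch 2 and -0.43 in batch 5. The higher member was the scaffold protein Aimp1 at 0.17 (SE 0.08, p = 0.040, FDR-adjusted p = 0.27). Iars was at -0.23 (SE 0.11, p = 0.053, FDR-adjusted p = 0.30). Among the markers, 4 of 8 astrocyte markers were higher (median 0.56), and 2 of 4 choroid plexus markers (median -0.95) and 2 of 8 CeA GABAergic markers (median -0.15) were lower, and their part in these values was not tested. In the shared batches 12 of 34 members were lower in FC in all 3, beside 16.8% of all genes.

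Qars, the glutaminyl-tRNA synthetase, was at 4.43, 4.94 and 5.91 in TA, 4.37, 4.73 and 5.56 in FC and 4.42, 4.92 and 5.82 in EXT. The 3 groups covered nearly the same range. Its difference in FC vs TA had an FDR-adjusted p of 0.25, and in EXT vs TA it was at -0.11 (p = 0.39).

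EXT vs FC gave few differences. No member and no gene of the matrix passed an FDR-adjusted p under 0.05 (0%), and at an unadjusted p under 0.05 1 member was higher and 1 lower, against 2.22% and 1.97% of all genes. The lower member was Iars at -0.41 (SE 0.16, p = 0.018, FDR-adjusted p = 0.98), which with batch as a number was at 0.03. The higher one was Lars2 at 1.38 (SE 0.43, p = 0.0034, FDR-adjusted p = 0.98), described below. Mars was at -0.24 (p = 0.070), or 0.05 with batch as a number, and Fars2, the mitochondrial phenylalanyl-tRNA synthetase, at 0.27 (p = 0.10). Fars2 was at 4.66, 5.72 and 6.54 log2 cpm in TA, 4.88, 5.35 and 6.18 in FC and 5.10, 5.51 and 6.84 in EXT. Its gene overlaps 11 others. Of the stretches of its transcripts, compared as for Iars, 8.85% also occur in other genes, most of these in Nrn1, so its level is uncertain. Nevertheless 28 of 34 members were below 0 in EXT vs FC, with a median of -0.12 against 0.01 over all genes. Lower in EXT at that p were also 3 of 8 astrocyte markers (median -0.49) and 2 of 6 oligodendrocyte markers (median -0.53), whose part in these values was not tested.

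The sexes were taken from the labels, and no check of them was made here. In males, EXT vs TA gave 10 members lower and 0 higher at an unadjusted p under 0.05 (20 mice), beside 7.51% of all genes lower and 4.97% higher. In females 4 were lower and 1 higher (12 mice), beside 5.62% and 8.19% of all genes. No member had an FDR-adjusted call in either sex (smallest 0.35 in both), beside 0.0122% of all genes in males and 0% in females. Iars was lower in both, at -0.40 in males (SE 0.12, p = 0.0039) and -0.90 in females (SE 0.19, p = 0.00047), and the difference, males minus females in a joint fit, was 0.30 (SE 0.20, p = 0.14, FDR-adjusted p = 0.90). The 1 member whose EXT vs TA effect differed between the sexes at an unadjusted p under 0.05 was Fars2, at -0.11 in males and 0.70 in females (difference -0.71, SE 0.28, p = 0.015, FDR-adjusted p = 0.71), beside 6.02% of all genes. The level of Fars2 is uncertain because of the shared stretches given above. In the fits of a single sex, the EXT mice of batches 3 and 4 do not inform the fold change. The EXT mice of batch 1 were all female, and most of those in batch 5 were male. The EXT vs TA mean difference of Iars was -1.08 in batch 1, -0.52 in batch 2 and -0.43 in batch 5. That of Fars2 was 0.49, 0.82 and -0.39 in the same batches. Batch 2 held EXT and TA mice of both sexes, and there Fars2 of every EXT mouse lay above that of every TA mouse. The sign for Fars2 thus did not simply follow sex. Sex and batch thus cannot be fully told apart here. In FC vs TA the differences at that level were those of Ears2 (0.56, p = 0.0023), Fars2 (-0.78, p = 0.0033) and Rars (0.30, p = 0.039), with FDR-adjusted p of 0.31 or more, beside 9.62% of all genes.

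The synthetases outside the complex also varied together from mouse to mouse. Correlations were taken over the 39 mice in groups of at least 3 per batch, after subtracting the mean of each batch and group, and describe mice that share library preparation and scaling. All 66 pairs of the 12 cytosolic synthetases outside the complex had r above 0, with a median of 0.61, while the median was 0.04 over the 55 pairs within the complex, 0.05 over the 55 pairs of mitochondrial members and -0.01 over all pairs of genes. Aars and Wars were the most alike, with r = 0.90, followed by Yars and Wars with r = 0.89. The scaffold proteins Eef1e1 and Aimp1 ran the other way, with a median r of -0.38 and -0.32 with those 12 enzymes, and the lowest value was that of Eef1e1 and Vars, -0.54. Aimp2, the third scaffold protein, did not share this and had a median r of 0.47. Iars was at 0.45 and Hars2, whose gene overlaps Hars, at 0.56. Single mice weigh on these values. EXT replicate 3 lay above the other mice of batch 3, with Aars at 7.47 against 5.37 to 6.04 log2 cpm and Wars at 7.62 against 5.37 to 6.48. FC replicate 10 lay low, with Aars at 5.33 and Wars at 5.67. The correlations were not repeated without these mice.

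**Figure D3:**
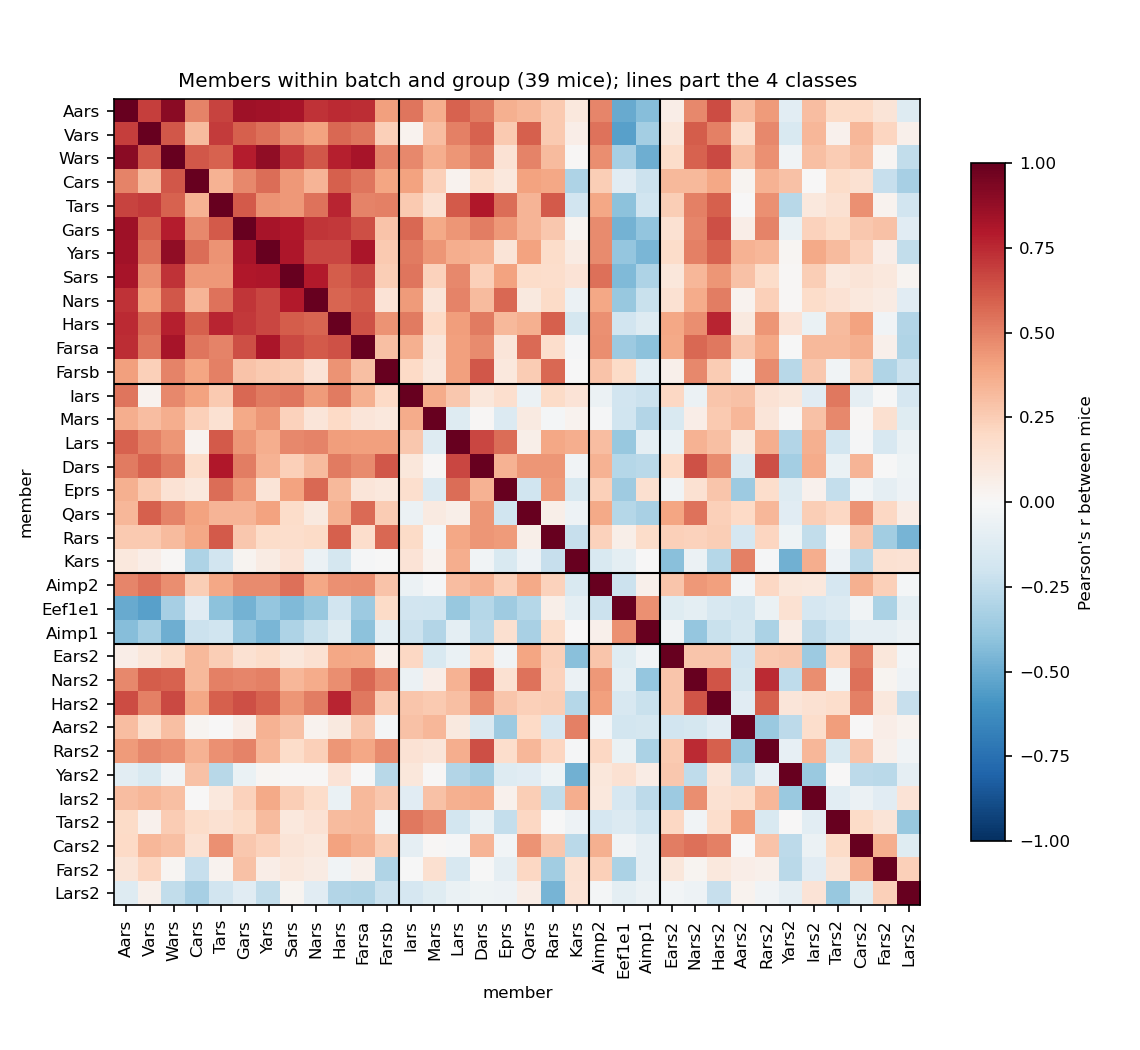
Pearson's r between members over 39 mice after subtracting the mean of each batch and group, with members on both axes in the order of the plot of fold changes and black lines between the 4 classes. The block of 12 cytosolic synthetases outside the complex (top left) has r above 0 throughout (median 0.61), and Eef1e1 and Aimp1 have mostly negative r with it.

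Lars2, the mitochondrial leucyl-tRNA synthetase, behaved unlike the other members. It was at 8.57, 9.79 and 13.70 log2 cpm in TA (lowest, median and highest), at 8.96, 9.83 and 10.71 in FC and at 8.67, 10.07 and 13.77 in EXT. In 36 mice it lay between 8.57 and 10.95, and in 8 mice, 5 TA and 3 EXT, between 12.02 and 13.77, with none between. Of these 8, 6 were in batch 5. In EXT vs FC the mean difference was 0.24 in batch 1, 0.58 in batch 2 and 2.41 in batch 5. In EXT vs TA it was at 0.45 (SE 0.56, p = 0.44) and in FC vs TA at -0.89 (SE 0.48, p = 0.078).

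The level of Lars2 followed that of the RNAs annotated as Gm15564 and Gm23935, which lie on chromosome 16 while Lars2 lies on chromosome 9 (123366927-123462666, plus strand, GRCm38). With Gm15564, r was 0.96 and Spearman's rho 0.96 in the 36 mice (permutation p = 1e-05 for both, the smallest that 100000 permutations allow, 2e-05 after Benjamini-Hochberg adjustment over 4 relations), and r was 0.94 without the 2 mice farthest from the median. In the other 8 mice r was 0.96 and rho 0.98 (exact permutation p = 0.00012 and 0.00040, adjusted 0.00017 and 0.00053). With Gm23935, r was 0.91 and rho 0.95 in the 36 mice (permutation p = 1e-05, adjusted 2e-05), and r was 0.95 and rho 0.95 in the 8 (exact permutation p = 0.00025 and 0.0011). These RNAs were set by name, no other gene entered the adjustment, and the mice were split at a gap seen in Lars2 itself. The permutations ignored batch, so the p-values only describe these relations. Within batches 1, 2 and 5, r in the mice with the lower levels was 0.89, 0.90 and 0.90 for Gm15564 and 0.75, 0.76 and 0.91 for Gm23935. The transcripts of Lars2 share only 22 stretches of 50 bases with other annotated transcripts (0.196%), and what links these RNAs was not tested.

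**Figure D4:**
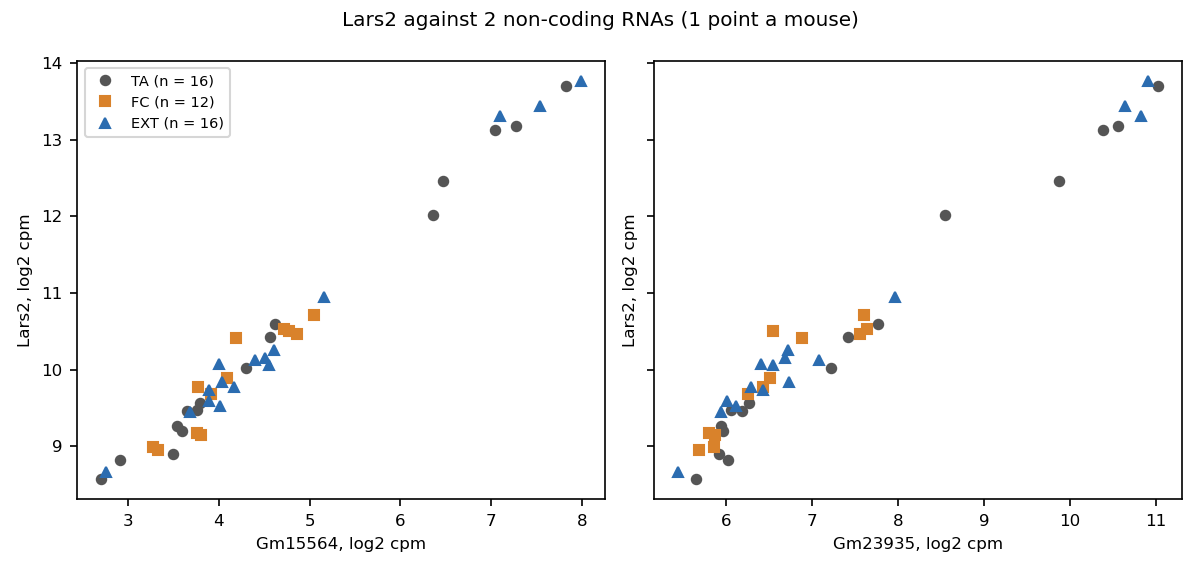
Log2 cpm of Lars2 (vertical axes) against log2 cpm of Gm15564 (left) and Gm23935 (right) in each of the 44 mice, by group. In 8 mice (5 TA, 3 EXT) Lars2 lies at 12.02 to 13.77, apart from the other 36, and both RNAs are high in the same mice.

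Genes around the synthetases were counted from 4 lists taken by known role. Beside each count at an unadjusted p under 0.05 stand the shares of all genes, 11% lower and 10.2% higher in EXT vs TA and 8.2% lower and 8.61% higher in FC vs TA. Of 19 measured genes that ATF4 or the amino acid response is known to raise, 3 were lower and 1 higher in EXT vs TA at an unadjusted p under 0.05 (median -0.06), and in FC vs TA the counts were 0 and 2. Sesn2, a sestrin that restrains mTORC1, was at -0.48 (SE 0.11, p = 0.00021, FDR-adjusted p = 0.13) and Asns, the asparagine synthetase, at -0.33 (p = 0.021). Ddit3, the stress transcription factor CHOP, went the other way at 0.30 (SE 0.12, p = 0.017, FDR-adjusted p = 0.17) and was at 0.36 in FC vs TA (p = 0.00034, FDR-adjusted p = 0.093). Its gene overlaps Mars on the opposite strand.

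Of 15 measured genes of the eIF2 pathway 1 was lower and 1 higher in EXT vs TA. These were Impact, an inhibitor of the eIF2 kinase GCN2, at -0.35 (p = 0.017) and the initiation factor Eif2d at 0.18 (p = 0.033), while Eif2b2 and Eif2s1 were at -0.17 (p = 0.061) and -0.23 (p = 0.086). Of 12 other genes of tRNA charging and mitochondrial translation 2 were lower and 4 higher, and none of the 4 lists held an FDR-adjusted call in EXT vs TA. The lower ones were Tarsl2, a second cytosolic threonyl-tRNA synthetase outside the symbols used here, at -0.41 (SE 0.12, p = 0.0022, FDR-adjusted p = 0.14), and the mitochondrial elongation factor Tufm at -0.35 (p = 0.0043). Pstk, a kinase of selenocysteine synthesis on its tRNA, was at 0.29 (p = 0.0072) and the tRNA modification enzyme Yrdc at 0.18 (p = 0.033).

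Of 39 measured genes of tRNA processing and modification 4 were lower and 3 higher in EXT vs TA, and in FC vs TA these counts were 1 and 10. Elac2, which trims the ends of tRNA precursors, was at -0.31 (SE 0.09, p = 0.0017, FDR-adjusted p = 0.14). The Elongator subunits Elp2 and Elp3, which modify tRNA anticodons, were at -0.45 (p = 0.0050) and -0.36 (p = 0.015), and Lage3, of the KEOPS complex, was at 0.46 (p = 0.012).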

How the data were processed

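Per the labels and the methods of the study, the authors trimmed the reads (Trimmomatic 0.36), aligned them to mouse build 38 (STAR), sorted the alignments (SAMtools), counted reads per gene, filtered the counts with edgeR to genes above a minimum cpm in every sample, removed outliers among the samples and normalized with limma voom before depositing log2 values. The deposited log2 values are log2 cpm of reads plus 0.5 over the effective library size, with no batch correction stated. A gene that fell below the filter in any 1 sample is not in the matrix. Solving them back gave whole reads within 0.05 for 360932 of 360932 values, and the lowest count was 28. Reads per gene fix the counting error, which is contained in the spread between mice.

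Members and gene lists were chosen with earlier results of these data known, among them the call of Iars. Groups were compared on all 8203 genes in R 4.3.3 by limma 3.58.1 (lmFit, then eBayes), with batch as categories and sex as a factor, on the mice of the groups compared. Batch numbers carry no order, and the coding used in the study was not given in the sources used here, so batch as a number was an alternative. All p-values are two-sided and were adjusted by the Benjamini-Hochberg method. Sex differences were interaction terms. Values in every group are given for members with an FDR-adjusted call, for the 6 members with the smallest p in EXT vs TA and the 4 with the smallest in each other comparison. From each pathway list the 4 genes with the smallest p in EXT vs TA are named, except 1 that is not reported here. The fit was tested on simulated data. Shared 50-base stretches, positions and transcript lengths came from GENCODE release 21 of the mouse annotation on GRCm38. The rest was done with scipy 1.17.1, pandas 2.3.3 and numpy 2.4.6 under Python 3.11.15. In 17 rows the gene symbol had been turned into a date, and none of these is a member. No pair of libraries in a group was alike within sampling noise (smallest chi-square per degree of freedom 24.0).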

Additional observations from a re-analysis of the deposited data

How the results depend on the processing

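The count of members with an FDR-adjusted p under 0.05 in EXT vs TA, 1 as reported, was 14 with batch as a number or no batch term, 6 without batches 3 and 4, and 0 with all 3 groups fitted together, with voom weights from the recovered reads (which call 0 of 8203 genes, 1750 at an unadjusted p under 0.05), with array weights and with log2 library size as a covariate. It ran from 0 to 5 when 1 mouse was left out, with 5 without EXT replicate 3. The Iars call was lost without any of TA replicates 2, 5, 6, 7, 8, 10, 12, 15 and 16 or EXT replicates 1, 4, 6, 7, 10, 13, 15 and 16, although the fold change stayed between -0.66 and -0.50. At an unadjusted p under 0.05 the count of 14 became 9 with array weights and 3 with log2 library size. In FC vs TA the count of 7 became 4 with batch as a number, 1 with no batch term, 3 with all groups fitted together and 4 with library size, and ran from 3 (without FC replicate 10) to 9 with 1 mouse left out. In EXT vs FC the count of 2 became 10 with batch as a number, 11 with no batch term, 4 with all groups together and 1 with library size, and ran from 1 (without EXT replicate 6) to 3. Iars in EXT vs FC turned from -0.41 to 0.033 and 0.023, and Mars from -0.24 to 0.048 and 0.030, with batch as a number and with no batch term. Median centring raised the members whose EXT vs TA effect differed between the sexes from 1 to 2, and batch as a number lowered those of FC vs TA in males from 5 to 3. The cause of these shifts was not tested. With batch as a number or no batch term, the levels of the 6 EXT mice of batches 3 and 4 enter the EXT fold changes. The share of all promoters with the letters was 1.03% for TGATGCAA in place of TGATGNAA. The other alternatives kept each count within 1.5 times. No paired analysis was possible because the labels give the mice no numbers shared between groups. Only 10 EXT mice share a batch with TA or FC mice. Their effective library sizes are lower than those of TA in the median of each shared batch, so group and library size cannot be fully told apart.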
